A study of Mus musculus with 12 samples.

Results

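The 9 genes described here encode the machinery of inflammatory and programmed cell death: the caspases Casp1, Casp4 and Casp8, the pore-forming proteins Gsdmd, Mlkl and Bak1, the kinases Ripk1 and Ripk3, and the death receptor Fas. They were chosen by name as caspase, pyroptosis and necroptosis genes, with earlier results of these data known. They are 9 of 23420 genes in the count table and were all among the 13095 genes kept for testing. RNA-Seq was performed on 12 B16-F10 tumors, 3 per group. B16-F10 is a single melanoma line derived from C57BL/6 mice, and it was implanted subcutaneously into male C57BL/6J mice. Obese mice received a Western diet supplemented with cholesterol, begun at 4 to 5 weeks of age and lasting 15 weeks, and nonobese mice received a matching control diet. Within each diet, antibody was injected into the peritoneum 3 times per week at 10 mg/kg, starting when tumors could be felt. The antibody was either anti–PD-1, a monoclonal antibody that blocks the T cell inhibitory receptor PD-1, or its isotype control. Crossing diet and antibody gave the 4 groups. No tumor was left untreated, and replicates are tumors of different mice bearing cells of 1 line. The comparisons ask whether the transcripts of these genes differ after PD-1 blockade and whether that response depends on the diet.

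Pyroptosis begins when an inflammasome, a complex of a sensor and the adaptor encoded by Pycard, activates caspase-1, which matures the cytokines IL-1β and IL-18 and cleaves gasdermin D (Gsdmd) so that it perforates the plasma membrane. Mouse Casp4, also known as caspase-11, cleaves the same gasdermin after sensing cytosolic lipopolysaccharide. Necroptosis runs through the kinases RIPK1 and RIPK3, which lead to activation of the membrane-disrupting protein MLKL. Caspase-8, the initiator caspase below Fas and other death receptors, starts apoptosis and restrains necroptosis, and BAK permeabilizes the outer mitochondrial membrane. Several of these genes are known to be induced by interferons, and most are expressed both in leukocytes and in other cells.

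All coordinates are 1-based, from the GENCODE annotation of GRCm38, the assembly underlying mm10. Casp1 (chr9:5298517-5307265, plus strand) and Casp4 (chr9:5308828-5336783, plus strand) are neighbors separated by 1562 bases. Mlkl lies at chr8:111311797-111338177 (minus strand), Gsdmd at chr15:75862327-75867408 (plus), Bak1 at chr17:27019810-27029009 (minus) and Casp8 at chr1:58795374-58847503 (plus). Ripk1 lies at chr13:34002363-34037147 (plus), Ripk3 at chr14:55784995-55788865 (minus) and Fas at chr19:34290666-34327772 (plus). Opposite-strand exons overlap a pair of these genes. Up to 18.2% of Bak1 exon bases are shared with Ggnbp1, which had only 2 to 13 counts per tumor, and 2.89% of Ripk1 exon bases are shared with Serpinb6a, which had 1947 to 4861 counts. On its own strand, Ripk1 shares 6.12% of its exon bases with Gm17084, a processed pseudogene that is not among the genes of the count table. How far this overlap affects the counts of Ripk1 was not tested.

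The 250 bases upstream of the RefSeq start (GRCm38.p6) are printed for Mlkl and Casp1, whose responses to anti–PD-1 are described in detail below, and for Fas, whose window holds a motif match. Each is given 5′ to 3′ on the strand of its gene, and the match is in capitals. The Mlkl window is chr8:111338206-111338455 (minus strand), the Casp1 window chr9:5298267-5298516 (plus strand) and the Fas window chr19:34290409-34290658 (plus strand).
Mlkl: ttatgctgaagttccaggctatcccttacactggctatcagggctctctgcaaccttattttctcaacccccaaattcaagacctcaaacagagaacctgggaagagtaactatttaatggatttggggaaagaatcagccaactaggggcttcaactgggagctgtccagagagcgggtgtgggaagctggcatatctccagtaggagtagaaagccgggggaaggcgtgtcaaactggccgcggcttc
Casp1: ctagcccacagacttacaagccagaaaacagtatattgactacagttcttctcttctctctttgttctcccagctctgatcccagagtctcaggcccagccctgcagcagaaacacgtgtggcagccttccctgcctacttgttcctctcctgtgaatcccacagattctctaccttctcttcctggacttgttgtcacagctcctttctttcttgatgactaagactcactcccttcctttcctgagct
Fas: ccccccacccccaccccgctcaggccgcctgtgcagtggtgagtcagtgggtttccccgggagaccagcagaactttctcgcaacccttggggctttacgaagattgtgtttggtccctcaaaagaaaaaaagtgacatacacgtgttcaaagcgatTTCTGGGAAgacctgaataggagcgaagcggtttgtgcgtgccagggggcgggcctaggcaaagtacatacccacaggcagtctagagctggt

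RefSeq promoter windows were matched for 8 of the 9 genes, all but Gsdmd. They were searched on both strands for GAAANNGAAA, the core of the interferon-stimulated response element bound by interferon-activated factors, and for TTCNNNGAA, the core of the γ-activated site bound by STAT dimers, which reads the same on both strands and can overlap other motifs. None of the windows held GAAANNGAAA, which occurs in 2.98% of 32851 mouse promoter windows of the same length, and this says only that these letters are not in these 250 bases. TTCNNNGAA occurs in 7.02% of all windows. It was found as TTCTGGGAA 93 to 85 bases upstream of the Fas start, and as TTCCCGGAA at 108 to 100 and at 11 to 3 bases upstream of the second of the RefSeq starts of Ripk1. Neither Mlkl nor Casp1 held either pattern. Such a match is a description of the sequence and not evidence of binding.

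Total counts per tumor ranged from 14022929 to 33871843, so that 3 counts, taken as the detection floor, corresponded to 0.0882 to 0.212 CPM, which are counts scaled to a common library total. Levels are CPM after TMM scaling unless another scale is named. Melanocytic markers were abundant in every tumor, with a summed level of 24720 to 30280 CPM, and 0 of 7 differed in either response by edgeR at an unadjusted P below 0.05. Of 4 keratinocyte markers, Krt1 and Krt10 had 0 counts in all 12 tumors. The summed level of the list was 0.625 to 7.76 CPM in nonobese isotype tumors, the highest in replicate 2, and at most 0.689 CPM in the other groups. Krt5, the 1 keratinocyte marker tested, was lower in the nonobese response at an unadjusted P below 0.05 (log2 fold change -4.56, FDR = 0.833). Leukocyte markers (Ptprc, Coro1a and Laptm5, summed) ranged from 47.6 to 104 CPM in nonobese isotype, 32.2 to 37.3 in nonobese anti–PD-1, 23.5 to 52.9 in obese isotype and 39.7 to 118 in obese anti–PD-1 tumors. The lowest of the obese anti–PD-1 values belonged to replicate 1, which stood apart from replicates 2 and 3 at 116 and 118 CPM. Replicate 1 was also the lowest in nonobese isotype (47.6 CPM) and nonobese anti–PD-1 (32.2 CPM), and replicate 2 was the lowest in obese isotype (23.5 CPM). As the tumors were sequenced in bulk, fewer cells of a type and less RNA per cell cannot be told apart in any of the results.

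The 9 genes spanned a wide range of levels. Per kilobase of exon, Bak1 was highest at a median of 82.9 CPM per kb over the 12 tumors (range 68.2 to 90.3), followed by Casp8 at 30.5 (25.7 to 31.8), Mlkl at 15.99 (14.2 to 25.4) and Ripk1 at 5.35 (4.90 to 5.94). The ranges of these 4 neighbors in the order did not overlap. Below them, Gsdmd had a median of 2.64 CPM per kb, Ripk3 1.70, Casp1 0.821, Casp4 0.660 and Fas 0.123. From Ripk1 downward, the range of each gene over the 12 tumors overlapped that of its neighbor, and Gsdmd reached the range of Ripk1 only through its highest tumor, at 5.44 CPM per kb. Within the necroptosis pair, the executor exceeded its upstream kinase in every tumor, with Mlkl between 5.68 and 23.5 times the level of Ripk3 per kilobase. With coding length as the denominator the order of Casp1 and Casp4 was exchanged and the ranges of Mlkl and Ripk1 overlapped, so that these positions depend on the length used.

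**Figure D1:**
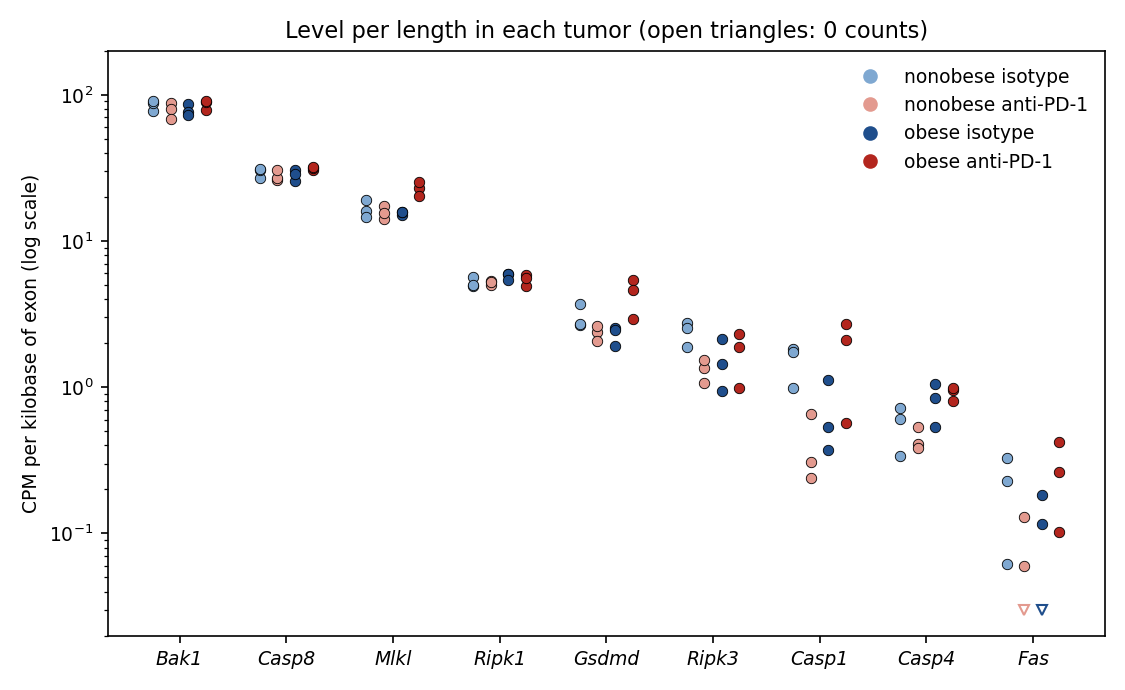
Level of each gene in CPM per kilobase of exon on a log axis, 1 point per tumor and 1 color per group, with open triangles for tumors with 0 counts. Bak1 stands at 68.2 to 90.3 CPM per kb in all tumors and Fas at 0 to 0.420.

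Mlkl, the executor of necroptosis, was higher in obese anti–PD-1 tumors than in any other tumor of the study. It stood at 53.3, 58.4 and 47.0 CPM in the 3 obese anti–PD-1 tumors and at 34.7, 36.7 and 36.6 CPM in the 3 obese isotype tumors. In nonobese mice it stood at 43.7, 37.0 and 33.4 CPM with isotype and at 40.0, 32.6 and 35.5 CPM with anti–PD-1. The 3 obese anti–PD-1 values thus lay above all 9 others, which 0.855% of the tested genes showed in that direction, whereas the other 3 groups overlapped each other. Replicate 1 of obese anti–PD-1, the tumor with the lowest leukocyte sum of its own group, shared the high Mlkl level. Anti–PD-1 gave a log2 fold change of 0.56 (SE 0.13) in obese mice (FDR = 0.206) and of -0.08 (SE 0.13) in nonobese mice (FDR = 0.951). The difference between the responses was 0.64 (SE 0.18, FDR = 0.168). By DESeq2 the FDR of Mlkl was 0.0101 in the obese response and 0.0357 in the difference, so its call at an FDR of 0.05 depended on the tool. Leaving out each tumor in turn kept the obese response between 0.49 and 0.65 and past an unadjusted P of 0.05 in all 12 fits.

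Gsdmd, the pore of pyroptosis, likewise separated the antibodies in obese mice. Levels of Gsdmd were 6.91, 12.9 and 11.04 CPM in obese anti–PD-1 and 6.02, 5.88 and 4.54 CPM in obese isotype tumors, without overlap. Nonobese tumors had 6.29, 8.82 and 6.42 CPM with isotype and 5.69, 4.92 and 6.24 CPM with anti–PD-1, which narrowly did not overlap in the other direction. The gene therefore lay lowest in obese isotype and nonobese anti–PD-1 tumors, and replicate 1 of obese anti–PD-1 stood close to them. The log2 fold change was 0.92 (SE 0.24) in obese mice (FDR = 0.281) and -0.36 (SE 0.24) in nonobese mice (FDR = 0.929). The difference was 1.27 (SE 0.34, FDR = 0.149), a 2.42-fold ratio of responses with a 95% interval of 1.45 to 4.03. By edgeR, the call at an FDR of 0.05 depended on replicate 1 of obese anti–PD-1. Without that tumor Gsdmd reached a log2 fold change of 1.15 (FDR = 0.0387) in obese mice and a difference of 1.51 (FDR = 0.0311). The same fit called 76 of 13355 tested genes in the obese response and 197 in the difference. By DESeq2 on all 12 tumors the FDR was 0.0484 for the obese response and 0.0299 for the difference.

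Bak1, the mitochondrial pore protein, was the most abundant of the 9 genes and differed little. It ranged from 188 to 217 CPM in nonobese isotype, 164 to 212 in nonobese anti–PD-1, 176 to 207 in obese isotype and 189 to 217 in obese anti–PD-1 tumors, so that all groups overlapped. The estimated factor with anti–PD-1 was 1.10 in obese mice (95% interval 0.926 to 1.31) and 0.922 in nonobese mice (0.774 to 1.10). Neither estimate passed an unadjusted P of 0.05, and the intervals leave room for modest differences.

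**Figure D2:**
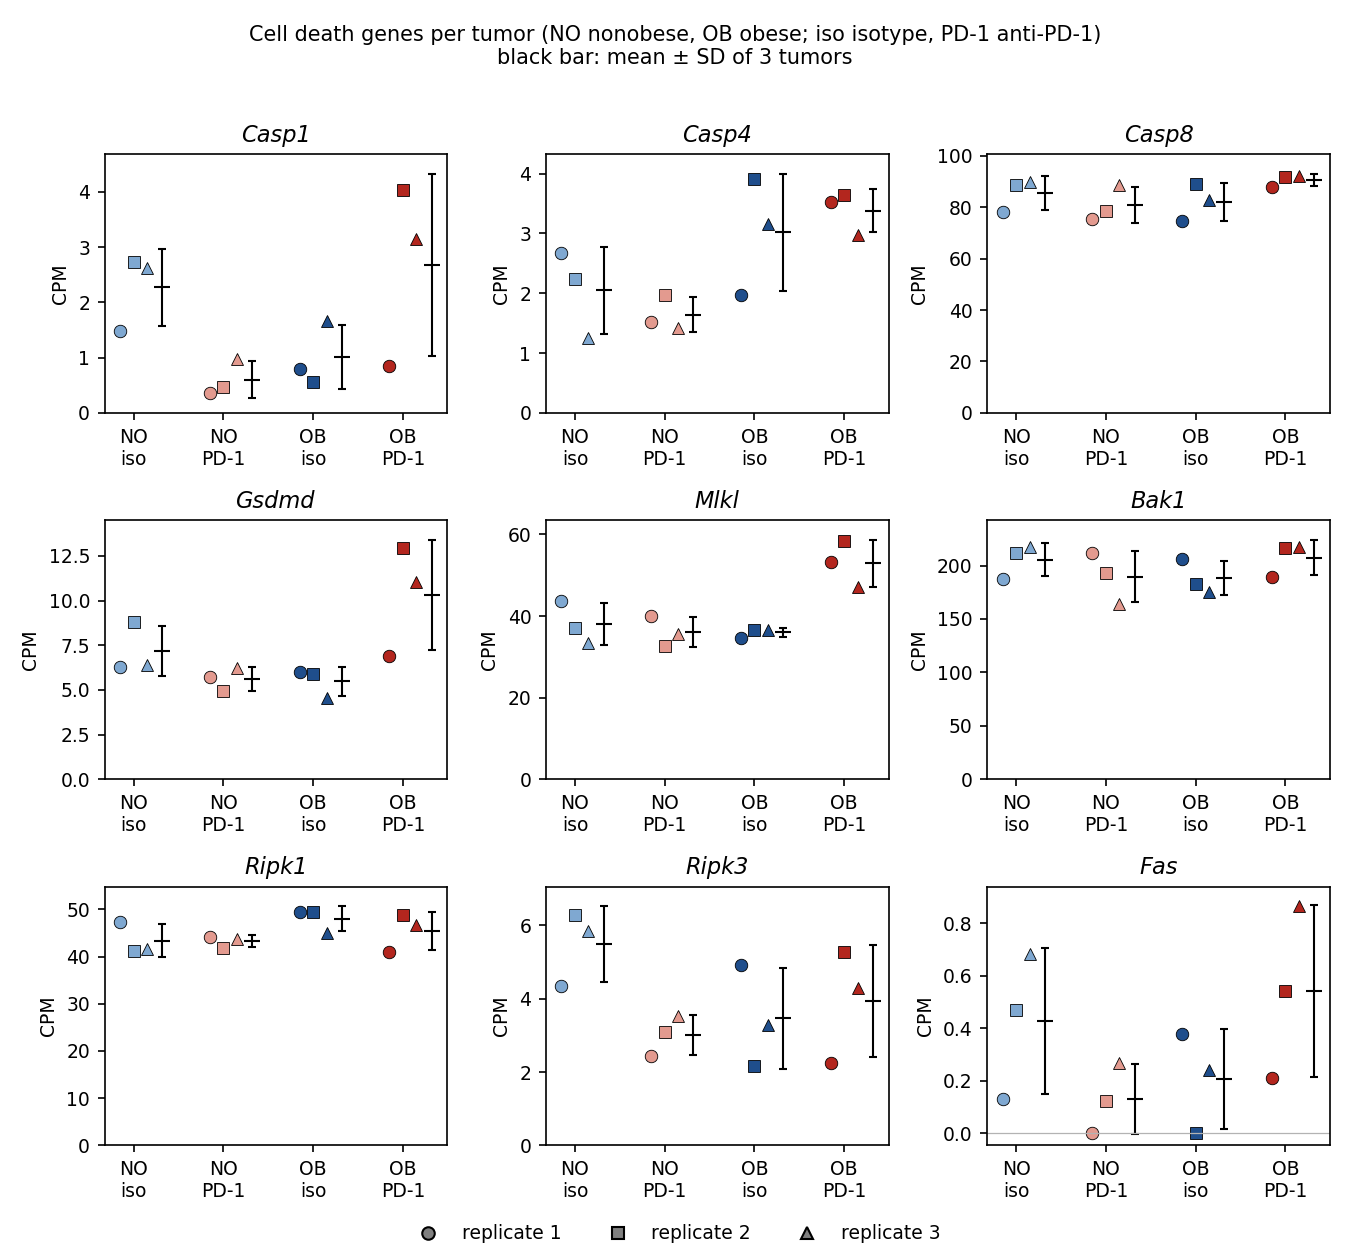
CPM of each of the 9 genes in each tumor, with 1 panel per gene, groups on the horizontal axis, symbols for replicate numbers and the black bar for mean ± SD of 3 tumors. In the Mlkl panel the obese anti–PD-1 tumors, at 47.0 to 58.4 CPM, lie above all others, and in the Casp1 panel replicate 1 of that group lies at 0.846 CPM, below replicates 2 and 3.

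Casp1, the inflammasome protease, had the largest estimated difference between the responses among the 9, on few counts. Nonobese isotype tumors had 1.48, 2.73 and 2.61 CPM, and nonobese anti–PD-1 tumors had 0.356, 0.464 and 0.981 CPM, without overlap. In obese mice it stood at 0.799, 0.560 and 1.67 CPM with isotype and at 0.846, 4.03 and 3.15 CPM with anti–PD-1. The obese groups overlapped because replicate 1 of obese anti–PD-1 lay among the isotype tumors. These levels rest on 7 to 93 counts per tumor, and for the 12 counts of obese anti–PD-1 replicate 1 the exact 95% Poisson interval, which covers counting error only, was 0.437 to 1.48 CPM. The log2 fold change was -1.91 (SE 0.59) in nonobese mice (FDR = 0.833) and 1.40 (SE 0.57) in obese mice (FDR = 0.581). The difference between these opposite estimates was 3.31 (SE 0.82, FDR = 0.128), and DESeq2 gave it an FDR of 0.0106. Casp1 passed an unadjusted P of 0.05 in both responses and in the difference. The call in the obese response was lost without obese isotype replicate 1 (log2 fold change 1.26) or 2 (1.15) and without obese anti–PD-1 replicate 2 (1.00) or 3 (1.29). The difference kept its unadjusted call in all 12 fits that left out 1 tumor. Without obese anti–PD-1 replicate 1 it was 3.74 (FDR = 0.0242), in a fit where 197 of 13355 tested genes passed an FDR of 0.05.

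Casp4, the caspase of the noncanonical inflammasome and the neighbor of Casp1, was higher in obese than in nonobese mice under anti–PD-1 at an unadjusted P below 0.05 and was not called in either response. It stood at 2.67, 2.23 and 1.25 CPM in nonobese isotype and 1.52, 1.98 and 1.43 CPM in nonobese anti–PD-1 tumors. Obese tumors had 1.98, 3.92 and 3.15 CPM with isotype and 3.53, 3.64 and 2.97 CPM with anti–PD-1. Under anti–PD-1 the obese tumors were all above the nonobese ones, with a log2 difference of 1.03 (SE 0.34, FDR = 0.269), and under isotype they overlapped, with a log2 difference of 0.53 (SE 0.34, FDR = 0.501). The response of Casp4 to anti–PD-1 was 0.17 (SE 0.34) in obese and -0.33 (SE 0.34) in nonobese mice, and the difference between them was not distinguishable from 0 (FDR = 0.684).

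Casp8, which couples death receptors to apoptosis, varied little between tumors. It ranged from 77.9 to 89.7 CPM in nonobese isotype, 75.3 to 88.7 in nonobese anti–PD-1, 74.4 to 89.0 in obese isotype and 88.0 to 92.1 in obese anti–PD-1 tumors. All groups overlapped, and the estimated factor was 1.11 in the obese response (95% interval 0.947 to 1.29) and 0.946 in the nonobese response (0.811 to 1.10). Neither passed an unadjusted P of 0.05.

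The kinases of necroptosis, Ripk1 and Ripk3, were each tested on their own and not against each other. Ripk1 overlapped between all groups within a diet, with 41.3 to 47.4 CPM in nonobese isotype, 41.8 to 44.2 in nonobese anti–PD-1, 45.0 to 49.6 in obese isotype and 40.9 to 48.8 in obese anti–PD-1 tumors. Its estimated factor was 0.947 in obese mice (95% interval 0.812 to 1.11) and 0.997 in nonobese mice (0.855 to 1.16). Ripk3, the kinase that activates MLKL, was lower with anti–PD-1 in nonobese mice, at 2.44, 3.09 and 3.52 CPM against 4.34, 6.29 and 5.85 CPM with isotype, without overlap. In obese mice it stood at 4.92, 2.17 and 3.29 CPM with isotype and 2.26, 5.26 and 4.29 CPM with anti–PD-1, an overlap of the full groups. The log2 fold change of Ripk3 was -0.86 (SE 0.34) in nonobese mice (FDR = 0.879) and 0.18 (SE 0.35) in obese mice (FDR = 0.928). The nonobese result passed an unadjusted P of 0.05, and it lost that call without nonobese isotype replicate 2 (-0.75) or 3 (-0.81) and without nonobese anti–PD-1 replicate 1 (-0.73) or 2 (-0.88). The difference between the responses was 1.04 (SE 0.49, FDR = 0.392), which lay at the threshold. It did not pass an unadjusted P of 0.05 with all tumors, but it passed by DESeq2 and in 4 of the 12 fits that left out 1 tumor, up to 1.41 without obese isotype replicate 1. Unlike Mlkl, its substrate, Ripk3 overlapped between the obese groups.

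Fas, the receptor for Fas ligand, was at the limit of detection. It had 4, 16 and 12 counts in nonobese isotype, 0, 4 and 6 in nonobese anti–PD-1, 9, 0 and 5 in obese isotype and 3, 11 and 19 in obese anti–PD-1 tumors. In the tumors with 0 counts, the floor of 3 counts was 0.153 CPM (nonobese anti–PD-1 replicate 1) and 0.210 CPM (obese isotype replicate 2). The upper ends of the exact 95% Poisson intervals there were 0.1875 and 0.258 CPM. All groups within a diet overlapped. The difference between responses was estimated at 2.88 on the log2 scale with a 95% interval of 0.04 to 5.71 (FDR = 0.380). It passed an unadjusted P of 0.05 with all tumors, and it lost that call by DESeq2 and with the replicate number as a block. The call was also lost in 8 of the 12 fits that left out 1 tumor, all but those without nonobese isotype replicate 1, nonobese anti–PD-1 replicate 3, obese isotype replicate 1 or obese anti–PD-1 replicate 1. The estimate stayed between 2.39 and 3.72 in those 12 fits. Fasl, which encodes the ligand, had 0 to 5 counts per tumor and was not tested.

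Read together over the list, 3 of the 9 genes (Mlkl, Gsdmd and Casp1) were higher in the obese response at an unadjusted P below 0.05, a call made in the same direction for 4.3% of all tested genes, and 0 were lower (3.27% of all genes). Only Casp1 was also past a fold change of 2, against 2.24% of all genes. Because the 9 genes were chosen with earlier results of these data known, the shares here and below describe the list and do not test it. In the nonobese response 2 of 9 (Casp1 and Ripk3) were lower, against 3.59% of all genes, and 0 were higher (1.64%). Casp1 was the only one past a fold change of 2, against 2.31%, and the log2 estimates of all 9 genes were below 0. The difference between the responses had 4 of 9 higher (Casp1, Gsdmd, Mlkl and Fas), against 7.01% of all genes, of which Casp1, Gsdmd and Fas were past a fold change of 2, against 4.93%. None of the 9 was lower in the difference, against 5.87% of all genes by P and 0.832% with the fold change. The median log2 value of the 9 genes was 0.18 in the obese response, -0.33 in the nonobese response and 0.64 in the difference, beside -0.01, 0.02 and -0.04 for all tested genes. Groups did not overlap for 2 of 9 genes in the obese response, both higher (5.45% of all genes), and for 3 of 9 in the nonobese response, all lower (5.37% against 5.81% higher). None of the 9 passed an FDR of 0.05 by edgeR in these 3 comparisons, and neither did any other gene (0% of 13095), whereas DESeq2 called 2 of 9 in the obese response (0.802% of all genes with an FDR), 0 in the nonobese response (0.0687%) and 3 of 9 in the difference (2.16%).

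**Figure D3:**
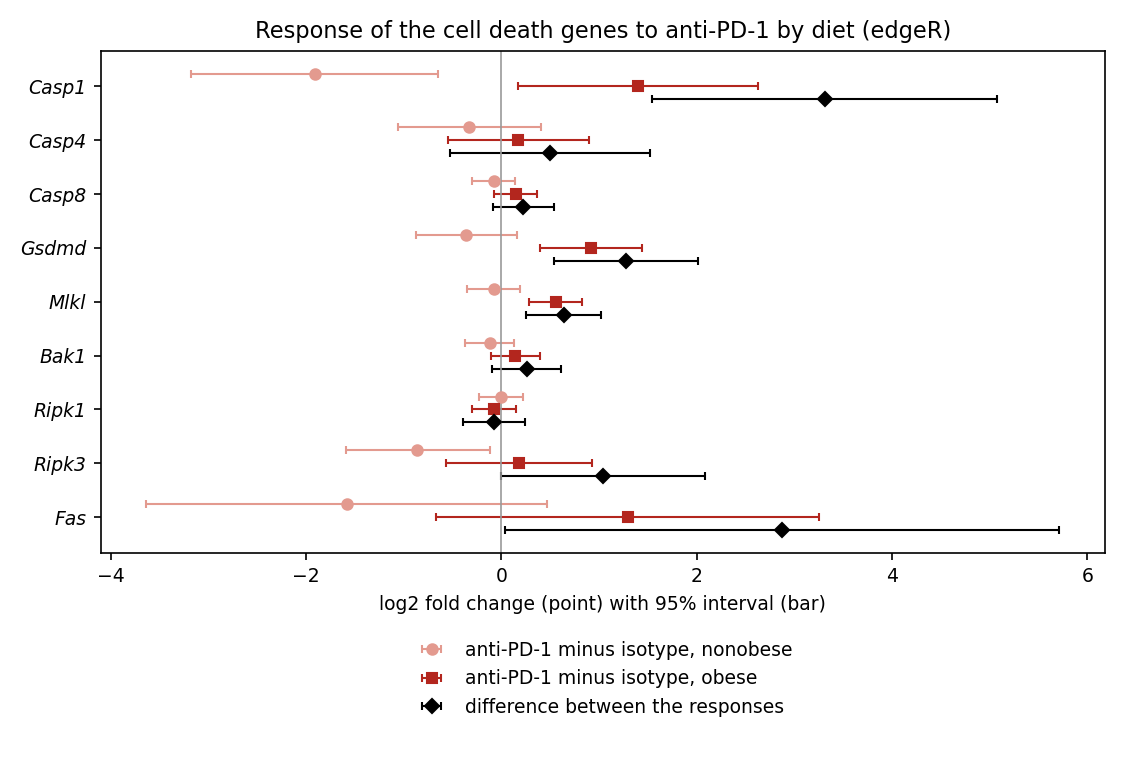
Log2 fold change with its 95% interval for anti–PD-1 against isotype in nonobese mice, in obese mice, and for the difference between these responses, by gene. The intervals of Casp1, Gsdmd, Mlkl and, narrowly, Fas for the difference lie above 0, and those of Ripk1, Casp8 and Bak1 are narrow and include 0.

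The diet contrasts were compared separately for each antibody, and they use the same tumors as the responses. With isotype, 0 of the 9 genes passed an unadjusted P of 0.05 by edgeR in either direction (7.11% of all genes were higher and 6.17% lower in obese tumors), and 0 passed an FDR of 0.05 by edgeR (0% of all genes) or DESeq2 (1.31%). The lowest P was that of Casp1, with a log2 difference of -1.14 (SE 0.57, FDR = 0.401). Gsdmd was lower in all 3 obese isotype tumors than in any nonobese isotype tumor, without passing the test, a separation found for 9.02% of all genes, against 10.4% in the opposite direction. None of the 9 was lower past a fold change of 2 with an unadjusted P below 0.05 (1.12% of all genes). With anti–PD-1, 4 of 9 genes were higher in obese tumors (5.71% of all genes) and 0 were lower (4.56%). These were Mlkl at 0.55 (SE 0.13, FDR = 0.0940), Casp1 at 2.17 (SE 0.59, FDR = 0.158), Gsdmd at 0.88 (SE 0.24, FDR = 0.158) and Casp4. Casp1 and Casp4 were past a fold change of 2, against 3.69% of all genes. Mlkl, Gsdmd and Casp4 did not overlap between the diets, against 6.54% of all genes, and none was separated in the opposite direction (7.06%). None of the 9 was among the 50 genes (0.382%) with an FDR below 0.05 by edgeR, and DESeq2 called Mlkl, Casp1 and Gsdmd among 270 genes (2.06%).

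Markers of several other cell types moved in the same direction as Casp1 and Gsdmd. All 3 leukocyte markers were higher in the obese response at an unadjusted P below 0.05, and 2 of 3 were lower in the nonobese response. Of 10 macrophage and monocyte markers, 3 were higher in the obese response, 9 were lower in the nonobese response and 10 were higher in the difference. Their summed level was 216 to 465 CPM in nonobese isotype, 140 to 207 in nonobese anti–PD-1, 170 to 296 in obese isotype and 244 to 477 in obese anti–PD-1 tumors. For T cell markers 5 of 8 tested were higher in the obese response, with summed levels of 13.9 to 30.8 CPM in obese isotype and 18.8 to 49.5 in obese anti–PD-1 tumors, although Cd3d was at 1.73 CPM at most. These sums were made up mostly of Thy1 (8.67 to 30.7 CPM in obese tumors) and Lck (3.57 to 6.39 CPM), neither of which was called in the obese response, so they do not describe the 5 called genes (Cd3d, Cd3e, Cd3g, Cd8a and Cd8b1). In the nonobese response 2 of 8 T cell markers (Thy1 and Cd4) were lower. The summed T cell level there was 25.3 to 44.8 CPM with isotype and 15.7 to 21.8 CPM with anti–PD-1, which did not overlap. Thy1 again made up most of it, at 19.75 to 37.1 CPM with isotype and 10.6 to 15.2 CPM with anti–PD-1. Cd3d, Cd3e, Cd3g, Cd8a and Cd8b1 were not called in the nonobese response. Cytotoxic lymphocyte markers (3 of 3 tested) and adipocyte markers (5 of 5) were also higher in the obese response. In the nonobese response 0 of 3 cytotoxic lymphocyte markers and 2 of 5 adipocyte markers (Adipoq and Cidec) were lower. The summed adipocyte level was 15.1 to 22.0 CPM in obese isotype and 31.3 to 64.4 CPM in obese anti–PD-1 tumors, which did not overlap. In nonobese mice that level was 15.5 to 29.1 CPM with isotype and 13.5 to 19.9 CPM with anti–PD-1, so that the 3 obese anti–PD-1 tumors lay above all 9 others. Fibroblast markers were lower in the nonobese response (3 of 5) and not called in the obese response. Of the 3 dendritic cell markers tested, Itgax was higher in the obese response and lower in the nonobese response, and of 4 endothelial markers Tek was lower in the nonobese response. Of 5 skeletal muscle markers, Mylpf was higher in the obese response, and the summed level was 28.1 to 468 CPM in obese anti–PD-1 and 9.55 to 105 CPM in obese isotype tumors, which overlapped. The 1 neutrophil marker tested was not called in either response. Under anti–PD-1, 9 of 10 macrophage and monocyte, 3 of 3 leukocyte and 6 of 8 T cell markers were higher in obese than in nonobese tumors. So were 3 of 3 cytotoxic lymphocyte, 5 of 5 adipocyte and 3 of 5 fibroblast markers, and 0 in these lists were lower. Under isotype, 3 of 10 macrophage and monocyte, 2 of 3 leukocyte, 2 of 8 T cell and 2 of 5 adipocyte markers were lower. In these lists 0 were higher under isotype. The part of these cell types in the levels of Casp1, Gsdmd, Mlkl and Ripk3 was not tested.

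Markers of different cell types gave different pictures of obese anti–PD-1 replicate 1. Obese anti–PD-1 replicate 1 had a leukocyte sum of 39.7 CPM, inside the 23.5 to 52.9 CPM of the obese isotype tumors, and it had 53.3 CPM of Mlkl, above all 9 tumors of the other groups. In the same tumor the summed adipocyte level was 56.6 CPM, above the 29.1 CPM that was the highest of the 9 tumors of the other groups. Its summed cytotoxic lymphocyte level was 1.97 CPM, above the obese isotype tumors (0.764 CPM at most) and inside the range of the nonobese isotype tumors (0.996 to 2.704 CPM). Its summed T cell level, made up mostly of Thy1 and Lck, was 18.8 CPM, inside the 13.9 to 30.8 CPM of the obese isotype tumors. Cd3d, Cd3e and Cd3g stood there at 0.705, 0.6345 and 1.13 CPM, above every tumor of the other groups (0.284, 0.357 and 0.239 CPM at most). Cd8a, at 0.6345 CPM, was above the obese isotype tumors (0.382 CPM at most) and below the highest nonobese isotype tumor (0.823 CPM). Cd8b1, at 0.282 CPM, was inside the range of the obese isotype tumors (0.382 CPM at most). Nonobese isotype replicates 2 and 3 had leukocyte sums of 104 and 91.7 CPM with Mlkl at 37.0 and 33.4 CPM. Casp1 in obese anti–PD-1 replicate 1 was 0.846 CPM and Gsdmd 6.91 CPM, while replicates 2 and 3, with leukocyte sums of 116 and 118 CPM, had 4.03 and 3.15 CPM of Casp1. Without that replicate the Mlkl response in obese mice was still called at an unadjusted P below 0.05.

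**Figure D4:**
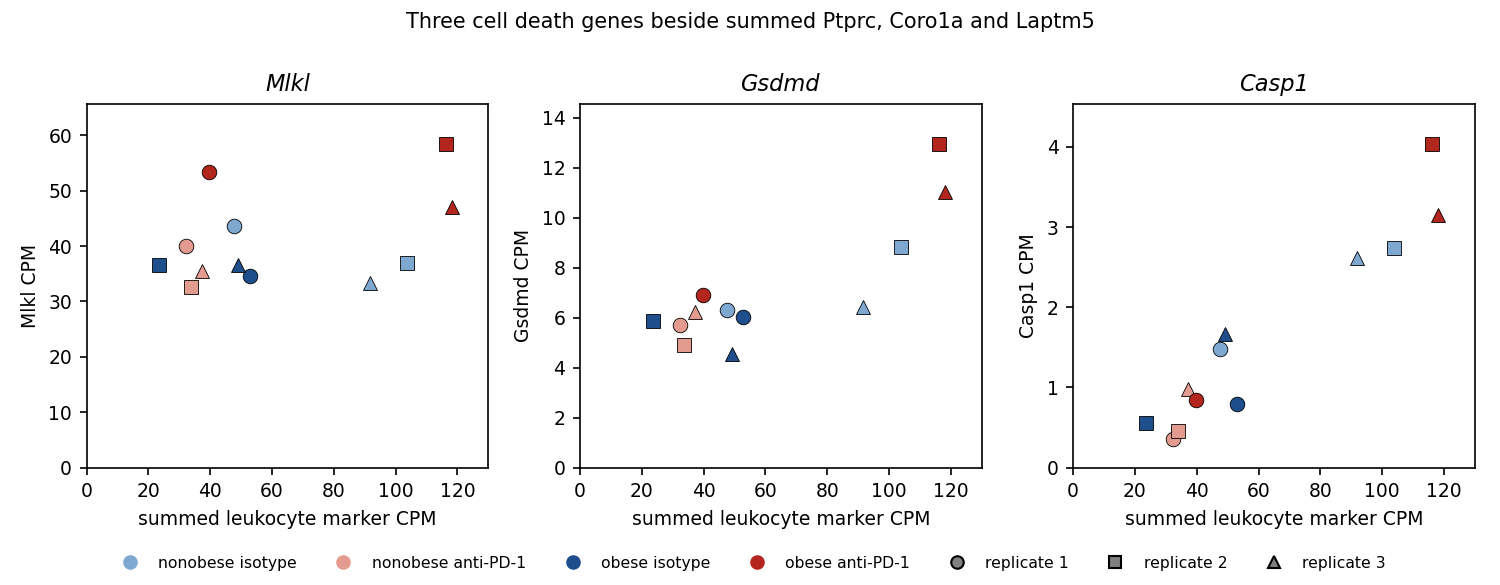
CPM of Mlkl, Gsdmd and Casp1 against the summed CPM of the leukocyte markers Ptprc, Coro1a and Laptm5, 1 symbol per tumor, colored by group. Obese anti–PD-1 replicate 1 lies at 39.7 CPM of markers with 53.3 CPM of Mlkl and 0.846 CPM of Casp1.

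The wider cell death pathway was described with 7 further lists holding 91 genes, of which 73 were tested. In the obese response 7 of 73 were higher and 2 lower at an unadjusted P below 0.05, beside 4.3% and 3.27% of all genes. In the nonobese response 1 was higher and 2 lower, beside 1.64% and 3.59%. In the difference 5 were higher and 5 lower, beside 7.01% and 5.87% of all genes. None of them passed an FDR of 0.05 by edgeR in these 3 comparisons, where the lowest FDR was 0.122. In the diet contrasts 7 of 73 were higher and 0 lower in obese tumors under isotype (lowest FDR 0.263), beside 7.11% and 6.17% of all genes, and 8 were higher and 3 lower under anti–PD-1 (lowest FDR 0.0952), beside 5.71% and 4.56%. The median log2 value over the 73 genes was 0.04 in the obese response and 0.04 in the difference, beside -0.01 and -0.04 for all genes.

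Among necroptosis triggers (8 tested), the largest difference was that of Zbp1, the interferon-inducible sensor of Z-form nucleic acid that engages RIPK3. Zbp1 stood at 4.37, 30.7 and 19.3 CPM in obese anti–PD-1 and 5.60, 2.38 and 2.91 CPM in obese isotype tumors, and at 4.18, 7.85 and 9.94 CPM in nonobese isotype and 1.32, 2.26 and 4.82 CPM in nonobese anti–PD-1 tumors. As for Casp1, replicate 1 of obese anti–PD-1 lay among the isotype tumors. Its log2 fold change was 2.31 (SE 0.61, FDR = 0.281) in obese and -1.38 (SE 0.61, FDR = 0.924) in nonobese mice, and the difference was 3.68 (SE 0.86, FDR = 0.122). Tlr3, an endosomal receptor for double-stranded RNA, was higher in the obese response by 0.36 (SE 0.15, FDR = 0.601).

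Of 10 tested inflammasome sensors and adaptors, 0 were called in either response by edgeR at an unadjusted P below 0.05. The adaptor gene Pycard was expressed at 31.0 to 48.1 CPM in all tumors, whereas the sensors Nlrp3 and Aim2 reached 1.03 and 0.867 CPM at most. Nek7, an NLRP3 partner, was lower in the difference by 0.49 (SE 0.19, FDR = 0.296). Among gasdermins and released cytokines (8 tested), Il18bp, which encodes the secreted inhibitor of IL-18, was higher in the obese response by 1.70 (SE 0.58, FDR = 0.473). Il18 itself gave a log2 value of -0.02 (SE 0.22) there, Gsdme -0.03 (SE 0.27), and Il1b had no more than 1.23 CPM in any tumor. Gsdmc, a further gasdermin gene named after its values were seen, was the 1 pathway gene higher in the nonobese response, at 45.0, 44.6 and 56.2 CPM with anti–PD-1 against 33.3, 40.8 and 35.8 CPM with isotype, without overlap. Its log2 fold change was 0.41 (SE 0.13, FDR = 0.833) there and 0.09 (SE 0.14, FDR = 0.909) in the obese response. Gsdmc has close paralogs, so its counts are uncertain. Of 6 other caspases tested, only Casp12, which neighbors the inflammatory caspases in the genome, was called in the obese response, at 1.24 (SE 0.43, FDR = 0.473).

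The death receptor adaptors and brakes, 17 genes that surround Casp8 and Ripk1, were called in neither response by edgeR at an unadjusted P below 0.05 (0 of 17), and Tbk1 was lower in the difference at -0.69 (SE 0.25, FDR = 0.284). Fadd, the adaptor between Fas and caspase-8, stood at 42.2 to 52.8 CPM, and Cflar, which encodes the caspase-8 inhibitor c-FLIP, at 113 to 213 CPM. Among 5 tested death receptors and ligands, Tnfsf10, the gene of the death ligand TRAIL, was higher in the obese response at 1.45 (SE 0.64, FDR = 0.632). Tnfrsf21 was higher in the difference at 1.36 (SE 0.43, FDR = 0.216). In the BCL2 family and mitochondrial apoptosis list (19 tested), the survival gene Bcl2a1b and the proapoptotic Bid were higher in the obese response, by 1.09 (SE 0.39, FDR = 0.486) and 0.30 (SE 0.14, FDR = 0.654). Bcl2a1b is one of several near-identical copies, so its counts are uncertain. Apaf1, the scaffold of the apoptosome, and the proapoptotic Bmf were lower, at -0.38 (SE 0.14, FDR = 0.535) and -0.53 (SE 0.20, FDR = 0.517), and both were also lower in the difference, as was Bcl2l2 at -0.73 (SE 0.29, FDR = 0.318). Bax, the partner of Bak1, gave a log2 value of -0.02 (SE 0.12) in the obese response.

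The calls of several pathway genes at an unadjusted P below 0.05 were lost with a tumor left out, while their estimates kept their direction. Over the 12 fits that left out 1 tumor, the obese response call was lost in 6 for Tnfsf10, in 5 for Bid, in 3 for Tlr3, in 2 each for Casp12, Apaf1, Bcl2a1b and Bmf, in 1 for Il18bp and in 0 for Zbp1. The call in the difference was lost in 7 fits for Bmf, in 5 each for Bcl2l2 and Casp12, in 3 each for Nek7 and Tbk1, and in 0 for Zbp1, Il18bp, Bcl2a1b, Apaf1 and Tnfrsf21. In the nonobese response it was lost in 6 for Zbp1, in 1 for Gsdmc and in 0 for Tnfrsf21, the other gene lower there, at -1.11 (SE 0.31, FDR = 0.833). The estimates over these fits ran from 0.96 to 1.90 for Tnfsf10, from 0.20 to 0.37 for Bid and from 0.30 to 0.44 for Tlr3 in the obese response, and from -0.77 to -0.48 for Bmf, from -0.92 to -0.46 for Bcl2l2 and from 1.19 to 2.02 for Casp12 in the difference.

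**Figure D5:**
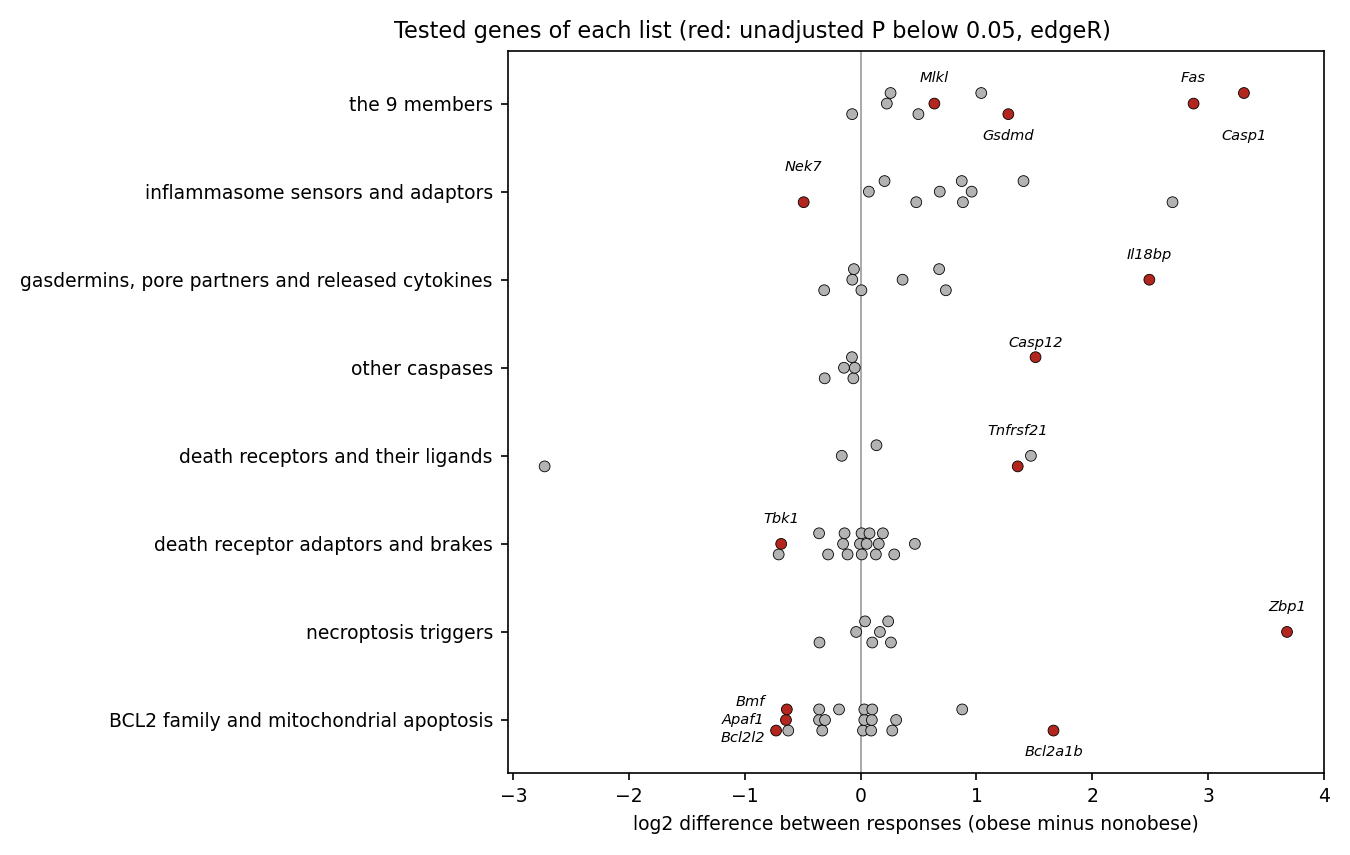
Log2 difference between the obese and the nonobese response for every tested gene of the 9-gene list and the 7 pathway lists, with red points for an unadjusted P below 0.05. Zbp1 lies at 3.68 and Casp1 at 3.31, while the death receptor adaptors and brakes lie around 0.

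The genes whose log2 CPM followed each of the 9 most closely over the 12 tumors were listed by Pearson correlation, as a description in which the tumors share their group structure and their cell mixture. Mlkl was closest to H2-K1, a class I antigen presentation gene (r = 0.862), Rsad2, an interferon-induced antiviral gene (r = 0.857), and Prph (r = 0.855). For Gsdmd these were Psmb10, a subunit of the immunoproteasome (r = 0.959), Gzmb, which encodes granzyme B (r = 0.952), and Bin2 (r = 0.944). Casp1 was closest to Tbxas1 (r = 0.967), Tlr9 (r = 0.959) and Dock2 (r = 0.958), the last a gene of hematopoietic cells. Ripk3 was closest to Thy1 (r = 0.958), Cd248 (r = 0.957) and Ece1 (r = 0.952), of which Thy1 and Cd248 are surface markers of fibroblasts among other cells. Casp4 was closest to Pla2g4a (r = 0.931), Nlrp10 (r = 0.913) and Plekha7 (r = 0.892), and Fas to Rassf4, Cfp and Dtx4 (r = 0.965, 0.965 and 0.962). Casp8 was closest to Cdca5, D16Ertd472e and Klra2 (r = 0.953, 0.949 and 0.886), Bak1 to Cndp2 and Mvp (r = 0.904 and 0.898), and Ripk1 to Zfp954, Ppp1r18 and Lmo4 (r = 0.860, 0.843 and 0.838). None of the genes named here appeared beside more than 1 of the 9.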

How the data were processed

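RNA of 12 tumors was sequenced as single-end reads of 100 bp from stranded mRNA libraries. Per the submitters' processing notes and the study's methods, the authors used FastQC 0.11.5, STAR 2.7.0f (mm10), HTSeq 0.9.1 and edgeR 3.28.1. The deposited values are raw counts per gene, without normalization. Whether HTSeq counted by strand is not given in the sources used here, so genes with opposite-strand overlaps are uncertain. Each column was matched to a tumor by its library name, and 0 columns were left unused.

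The 9 genes, the pathway lists and the marker lists were chosen with earlier results of these data known. Counts were filtered with filterByExpr (13095 genes), scaled by TMM and fitted in edgeR 4.0.16 (R 4.3.3) with 4 group means (8 residual degrees of freedom). Genes were tested with its quasi-likelihood method, with legacy=TRUE, the form of the authors' version. P is unadjusted and two-sided, and FDR is Benjamini-Hochberg over all tested genes. The antibodies were compared within each diet, the diets within each antibody, and the responses with each other. A fold change above 2 with P below 0.05 was counted as in the study's methods. Standard errors and 95% intervals were derived from the F statistic. Correlations used log2 CPM with a prior count of 2. Exon lengths are from GENCODE vM21. Named genes are the 9 genes, from each pathway list those with P below 0.05 in the obese response or the difference (at most 4), 12 genes fixed by name, and for each of the 9 the 3 closest by correlation, of which 1 is not reported here. The code was tested on simulated data. Alternatives were DESeq2 1.42.0, other scalings, filters and priors, the replicate number as a block, fits of 6 tumors, and leaving out each tumor. Reads had no molecular identifiers, so floors and count intervals cover counting error only.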

Additional observations from a re-analysis of the deposited data

Results flagged for a closer look

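The response to anti–PD-1 differed between obese and nonobese mice by the test of the difference itself, at an unadjusted P below 0.05, for 4 of the 9 genes, all higher, beside 7.01% of all genes in that direction. The log2 difference (obese response minus nonobese response, edgeR) was 3.31 for Casp1 (FDR = 0.128), 2.88 for Fas (FDR = 0.380), 1.27 for Gsdmd (FDR = 0.149) and 0.64 for Mlkl (FDR = 0.168). None passed an FDR of 0.05 by edgeR, and Fas rests on 0 to 19 counts per tumor. Fas lost its unadjusted call by DESeq2, with the replicate number as a block and in 8 of the 12 fits that left out 1 tumor. The 9 genes were chosen with earlier results of these data known, so the share beside them is a description and not a test of the list. Single outlying tumors were not tested for in the groups of 3.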

How the results depend on the processing

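The obese response of Mlkl and Gsdmd and the difference between responses of Mlkl, Gsdmd and Casp1 kept their direction and an unadjusted P below 0.05 under each alternative that could test them (Casp1 was not tested where 10 counts were required in every tumor). Their FDR passed 0.05 by DESeq2, which called 2 of the 9 genes in the obese response, 3 in the difference and 3 in the diet contrast under anti–PD-1, beside 105, 283 and 270 of all genes. Without obese anti–PD-1 replicate 1, edgeR called Gsdmd in the obese response and Gsdmd and Casp1 in the difference, but not Mlkl (FDR = 0.127 and 0.129). That fit called 76 of 13355 tested genes in the obese response and 197 in the difference, beside 0 in each with all tumors. Levels of Casp1, Casp4 and Fas are limited by depth, and no alternative could raise their counts. The cause of the changes listed here was not tested, except that fewer genes were tested where 10 counts were required in every tumor.

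With 10 counts required in every tumor, Casp1 and Fas were not tested. The number past a fold change of 2 became 0 in the obese response, 0 in the nonobese response and 1 in the diet contrast under anti–PD-1, 1 gene was lower in the nonobese response, and the nonobese median was -0.15. With at least 1 count required over all tumors, or with only the 6 tumors compared, 1 gene was lower in obese isotype tumors and 1 was past a fold change of 2. The nonobese median with 6 tumors was -0.24. Ripk1 in the nonobese response, close to 0 throughout, turned to 0.022 with library size alone and to 0.015 with the lower filter. With library size alone, 1 gene was past a fold change of 2 in the diet contrast under anti–PD-1, and 4 pathway genes were higher in the obese response. Pathway genes lower in the nonobese response numbered 1 by DESeq2, with library size alone and with a robust prior. Per kilobase of coding sequence, median levels in CPM were 318 for Bak1, 58.9 for Casp8, 26.01 for Mlkl, 22.7 for Ripk1, 4.29 for Gsdmd, 2.68 for Ripk3, 2.19 for Casp4 and 0.258 for Fas.

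Leaving out each tumor in turn, the 9 genes had 0 to 2 members past a fold change of 2 and 0 to 1 with an FDR below 0.05 in the obese response, with a median from 0.15 to 0.55. In the nonobese response 1 to 2 were lower, 1 to 2 were past a fold change of 2, and the median ran from -0.43 to -0.18. In the difference 0 to 2 had an FDR below 0.05, and in the diet contrast under anti–PD-1 0 to 2 did, with 1 to 4 past a fold change of 2. The fit without obese anti–PD-1 replicate 1 reached each of these upper FDR counts. At that FDR it called 76, 197 and 214 of 13355 tested genes in the obese response, the difference and that diet contrast. Under isotype, 0 to 1 of the 9 genes were higher, 0 to 2 lower and 0 to 1 past a fold change of 2, with a median from -0.22 to -0.11. Pathway genes numbered 3 to 10 higher and 1 to 5 lower in the obese response, 0 to 7 higher and 1 to 4 lower in the nonobese response, and 4 to 10 higher and 2 to 8 lower in the difference. Over all genes, 664 to 1438 passed an unadjusted P of 0.05 in either direction in the obese response. In the nonobese response 319 to 1167 did. Under isotype, such calls numbered 929 without nonobese isotype replicate 2 and 2199 without obese isotype replicate 1. Among the 9 genes, estimates that were not called and crossed 0 were, in the obese response, Casp4 (-0.046 to 0.41), Ripk1 (-0.12 to 0.013) and Ripk3 (-0.069 to 0.55). They were Mlkl (-0.16 to 0.033) and Ripk1 (-0.039 to 0.065) in the nonobese response, Ripk1 (-0.14 to 0.018) in the difference and Mlkl (-0.18 to 0.031) under isotype.

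The labels number the replicates, and each tumor came from its own mouse. After subtraction of group means, tumors correlated at a mean of 0.133 over 18 same-number pairs (10 above 0.1) and at -0.06 over 36 other pairs, and 6 of 12 tumors correlated best with their own number. Replicate 1 of nonobese isotype correlated with replicate 1 of nonobese anti–PD-1, obese anti–PD-1 and obese isotype at 0.548, 0.563 and -0.127. These values do not settle whether tumors of the same number shared an effect. The labels do not state a pairing, and the main fit used none. With the replicate number as a block, Fas lost its call in the difference (2.702, FDR = 0.409), and 1 gene was lower in obese isotype tumors and 1 past a fold change of 2. Over all genes the block gave 2 calls at an FDR of 0.05 in the obese response, 11 in the difference and 95 in the diet contrast under anti–PD-1. Without the block these numbered 0, 0 and 50.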
